A study of Mus musculus with 12 samples.

Results

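The small heat shock proteins of the heart and their co-chaperone BAG3 were followed as transcripts in adult cardiomyocytes with and without desmin. The 8 genes were Cryab, Hspb1, Hspb2, Hspb3, Hspb6, Hspb7, Hspb8 and Bag3, taken by gene symbol from the 21493 genes listed for each library. Each symbol had a row in all 12 libraries, and all 8 genes passed the filter on low counts that left 13158 genes for testing. The cardiomyocytes came from 3-month-old mice by enzymatic perfusion of the heart, and poly-A RNA was sequenced. The 4 groups were Des+/+ non-swim, Des+/+ swim, Des-/- non-swim and Des-/- swim, with 3 libraries each; Des-/- mice lack the desmin gene product, and swimming is an exercise load that served as mild stress. By the study's methods, mice of all 4 groups were of 129SV background and carried the αMHC-GFP transgene, in which the cardiomyocyte promoter of α-myosin heavy chain drives GFP, and each library pooled the cells of several mice.

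Small heat shock proteins bind unfolding proteins without using ATP and hold them in a state from which other chaperones can refold them. In heart muscle they are abundant at the sarcomere and the Z-disc, where αB-crystallin, the product of Cryab, binds desmin filaments. BAG3 links HSPB8 and its substrates to HSP70, and the complex hands damaged Z-disc proteins such as filamin C to autophagy. Heat shock factor 1, the transcription factor of the heat shock response, binds repeats of the bases GAA in alternating orientation.

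The promoters of these genes are shown because several members are known targets of heat shock factor 1. The windows run from 250 bases before to 50 bases from the start site on, from RefSeq on GRCm38.p6, and 6 of the 8 members had an entry; Cryab and Hspb2 had none. Capitals mark GAANNTTC or TATAAA, 2 of the 3 motifs searched on both strands; no matches of different motifs overlapped. The windows lie at chr5:135887669-135887968 on the plus strand (Hspb1), chr7:128523333-128523632 on the plus strand (Bag3), chr5:116422815-116423114 on the minus strand (Hspb8), chr7:30553051-30553350 on the plus strand (the second of 2 entries of Hspb6) and chr4:141420529-141420828 on the plus strand (Hspb7).
Hspb1: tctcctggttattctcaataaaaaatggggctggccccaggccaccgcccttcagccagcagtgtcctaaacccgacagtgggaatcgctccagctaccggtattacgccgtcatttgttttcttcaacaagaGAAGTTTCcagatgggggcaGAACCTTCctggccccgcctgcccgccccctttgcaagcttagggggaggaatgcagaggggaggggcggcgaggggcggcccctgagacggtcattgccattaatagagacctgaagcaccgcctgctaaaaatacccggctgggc
Bag3: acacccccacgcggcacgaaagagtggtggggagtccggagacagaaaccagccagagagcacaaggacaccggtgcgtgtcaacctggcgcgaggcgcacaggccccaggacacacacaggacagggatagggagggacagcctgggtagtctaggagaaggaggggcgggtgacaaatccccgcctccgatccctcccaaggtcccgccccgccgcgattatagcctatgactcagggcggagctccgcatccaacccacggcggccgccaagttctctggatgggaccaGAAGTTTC
Hspb8: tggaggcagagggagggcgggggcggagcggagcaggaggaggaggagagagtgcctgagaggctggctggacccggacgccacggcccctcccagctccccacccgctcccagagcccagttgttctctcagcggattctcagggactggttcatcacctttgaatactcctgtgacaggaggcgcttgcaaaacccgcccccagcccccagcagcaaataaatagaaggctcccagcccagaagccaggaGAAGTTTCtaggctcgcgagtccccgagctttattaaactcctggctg
Hspb6: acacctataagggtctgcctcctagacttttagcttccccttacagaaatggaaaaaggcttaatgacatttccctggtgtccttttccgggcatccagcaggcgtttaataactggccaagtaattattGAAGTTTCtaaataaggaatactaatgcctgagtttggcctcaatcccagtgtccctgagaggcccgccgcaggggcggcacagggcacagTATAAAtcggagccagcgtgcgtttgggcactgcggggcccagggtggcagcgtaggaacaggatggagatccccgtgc
Hspb7: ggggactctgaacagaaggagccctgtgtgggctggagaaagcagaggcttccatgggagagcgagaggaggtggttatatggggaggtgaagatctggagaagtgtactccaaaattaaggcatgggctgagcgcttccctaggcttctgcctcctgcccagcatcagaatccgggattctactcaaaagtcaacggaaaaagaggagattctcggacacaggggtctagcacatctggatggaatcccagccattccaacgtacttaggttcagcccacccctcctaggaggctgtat

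GAANNTTC, which reads the same on both strands, was found in windows of 5 members and in 7.86% of the 32851 promoters of the same length. Counted from the start site, its first base lay at -117 and -97 in Hspb1, at 43 in Bag3, at 3 in Hspb8, at -120 in Hspb6 and at -224 in Hspb3. The Hspb7 window and the other Hspb6 window held no match. The shifted form TTCNNGAA was in 0 of the members' windows and in 8.52% of all promoters. TATAAA was found at -29 in Hspb6 and at -11 in Hspb3 and in 13.6% of all promoters. These matches describe the letters in the windows and do not show binding.

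Cryab and Hspb2 are neighbours on chromosome 9 of GRCm38. Cryab runs from 50751325 to 50756636 on the plus strand and Hspb2 from 50751078 to 50752354 on the minus strand, so that the annotated genes share 1030 bases. Whether the counts separated the strands was examined on overlapping genes of opposite strands, with the limits given below. A check took 87 overlapping pairs and expected more than 3000 reads in each from the opposite strand had strand been ignored. Of these pairs, 16 held under 1% of that number. The check assumed that shared reads are credited to the overlapped gene. By the study's methods, reads were counted on the reverse strand. In that mode, reads shared with a gene on the opposite strand are not set aside as ambiguous. Reads of an unstranded library would in part be credited to the overlapped gene, which these 16 pairs did not show. The check took even coverage of exons for granted, and the other pairs can hold reads of their own. No value for Cryab and Hspb2 alone is given. The study's methods name a directional library kit, while the sample labels name a different kit. The other members lie at 135887919 to 135889563 (Hspb1) and 116408491 to 116422864 (Hspb8) on chromosome 5, 30552178 to 30555443 (Hspb6) and 128523616 to 128546981 (Bag3) on chromosome 7, 141420779 to 141425311 on chromosome 4 (Hspb7) and 113662896 to 113663676 on chromosome 13 (Hspb3). Hspb6 overlaps the counted gene Gm38670 on its own strand, so reads of the shared stretch may be missing from its count.

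Reads assigned to genes ranged from 4320819 to 12072443 per library. Des was measured as the check of the labels and averaged 2367 ± 1137 (non-swim) and 1273 ± 336 CPM (swim; SD, n = 3) with desmin present, where CPM is the read count scaled to library size, and 59.5 ± 11.3 and 96.5 ± 4.71 CPM (SD, n = 3) in the respective Des-/- groups; the genotypes did not overlap. The share of uniquely aligned reads outside genes also differed between groups and was 33.97% to 39.34% (Des+/+ non-swim), 45.87% to 50.39% (Des+/+ swim), 34.16% to 52.32% (Des-/- non-swim) and 57.18% to 64.52% (Des-/- swim). Markers of other cells were present in every group. Replicate 3 of both Des-/- groups stood apart, with fibroblast markers summing to 40595 and 14144 CPM against 4130 to 9526 CPM in the other Des-/- libraries. Replicate 2 of the Des+/+ swim group stood apart in Hspb1 and other heat shock genes. The members' changes were also fitted without each library in turn.

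The first question was how abundant each member is in unstressed cells that hold desmin. Per kilobase of exon length, Hspb7 ranked highest in Des+/+ non-swim libraries at 814 ± 360 CPM per kb (SD, n = 3), followed by Cryab at 588 ± 124. Hspb6 stood at 294 ± 131, Hspb8 at 213 ± 91.9, Hspb1 at 200 ± 37.5 and Bag3 at 156 ± 30.2 CPM per kb (SD, n = 3). Hspb7 and Cryab, Hspb6 and Hspb8, Hspb6 and Hspb1, Hspb8 and Hspb1, and Hspb8 and Bag3 differed by less than the SD of the higher gene. Hspb2 followed at 67.6 ± 29.2 and Hspb3 was lowest at 9.29 ± 3.57 CPM per kb (SD, n = 3). Among 13157 genes with a length, Hspb7 ranked 30, Cryab 53, Hspb6 127, Hspb8 190, Hspb1 212, Bag3 284, Hspb2 731 and Hspb3 5234 in this group.

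The next comparison asked how the members differ between genotypes without swimming. In Des-/- libraries 7 of the 8 transcripts were lower, by 2.08-fold for Bag3 to 5.15-fold for Hspb6, and Hspb1 was not called. Of all genes tested, 18% were lower in this comparison (edgeR, adjusted p under 0.05), and the median log2 change over all genes was 0.04. The ranges of the 3 libraries did not overlap for all 8 members, each lower in Des-/-, which held for 24.9% of all genes tested.

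Cryab encodes αB-crystallin, the small heat shock protein that binds desmin. Its level was 668, 1028 and 914 CPM in the Des+/+ non-swim libraries and 215, 290 and 198 CPM in the Des-/- non-swim libraries. The nearest libraries of the 2 genotypes were 2.30 times apart. The log2 change was -1.89 (SE 0.21, edgeR adjusted p 7.04e-04), a level 3.71-fold lower.

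Hspb2, the neighbour of Cryab, encodes a muscle protein that assembles with HSPB3. It was measured at 37.6, 83.9 and 47.7 CPM in Des+/+ and at 20.6, 19.6 and 15.2 CPM in Des-/- non-swim libraries. The groups were separate, and the log2 change was -1.61 (SE 0.29, edgeR adjusted p 0.00232). Its partner Hspb3 was the least abundant member, with 4.36, 7.48 and 9.92 CPM in Des+/+ and 2.13, 2.15 and 1.66 CPM in Des-/- libraries. These values rest on 37 to 110 reads per Des+/+ library and on 19 to 20 per Des-/- library. The log2 change was -1.87 (SE 0.37, edgeR adjusted p 0.00348).

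Hspb6 encodes the protein also called HSP20, which is phosphorylated downstream of β-adrenergic signalling. It gave 463, 1021 and 543 CPM in Des+/+ and 135, 191 and 68.0 CPM in Des-/- non-swim libraries, the largest log2 change of the 8 members at -2.37 (SE 0.42, edgeR adjusted p 0.00223). Hspb7, a small heat shock protein of heart and skeletal muscle that acts in the assembly of thin filaments, was read at 1457, 3370 and 1935 CPM in Des+/+ and at 404, 737 and 308 CPM in Des-/- libraries. Its log2 change was -2.22 (SE 0.40, edgeR adjusted p 0.00223). Over the 12 libraries these genes were the pair of members most alike, with a root mean square difference of 0.20 between their centred log2 levels.

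Hspb8 and Bag3 encode the chaperone and co-chaperone of a common complex. Hspb8 stood at 293, 621 and 331 CPM in Des+/+ and at 98.3, 152 and 83.8 CPM in Des-/- non-swim libraries, a log2 change of -1.90 (SE 0.29, edgeR adjusted p 0.00123). Bag3 stood at 320, 474 and 403 CPM in Des+/+ and at 152, 204 and 218 CPM in Des-/- libraries. Its log2 change of -1.06 (SE 0.18, edgeR adjusted p 0.00157) was the smallest of the 7 called. Replicate 2 of the Des+/+ non-swim group was the highest of its group for 6 of the 8 members; it was not for Hspb1 and Hspb3.

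Hspb1, which encodes the heat-inducible HSP25, was measured at 240, 164 and 214 CPM in Des+/+ and at 139, 138 and 92.3 CPM in Des-/- non-swim libraries. The groups were separate, by 1.18 times between their nearest libraries, but the log2 change of -0.74 (SE 0.55) had an edgeR adjusted p of 0.323. The spread in this fit is shared by all 12 libraries and includes replicate 2 of the Des+/+ swim group, in which Hspb1 stood far above the others. Without that library the log2 change was again -0.74 (SE 0.22, edgeR adjusted p 0.0284), and all 8 members were called lower, against 17.8% of all genes. No other fit without a single library called Hspb1. An edgeR fit of only the 6 non-swim libraries, which also lacks that library, called 7 members lower but not Hspb1, against 15.4% of all genes. DESeq2 on all 12 libraries did not call Hspb1 either (adjusted p 0.286).

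**Figure D1:**
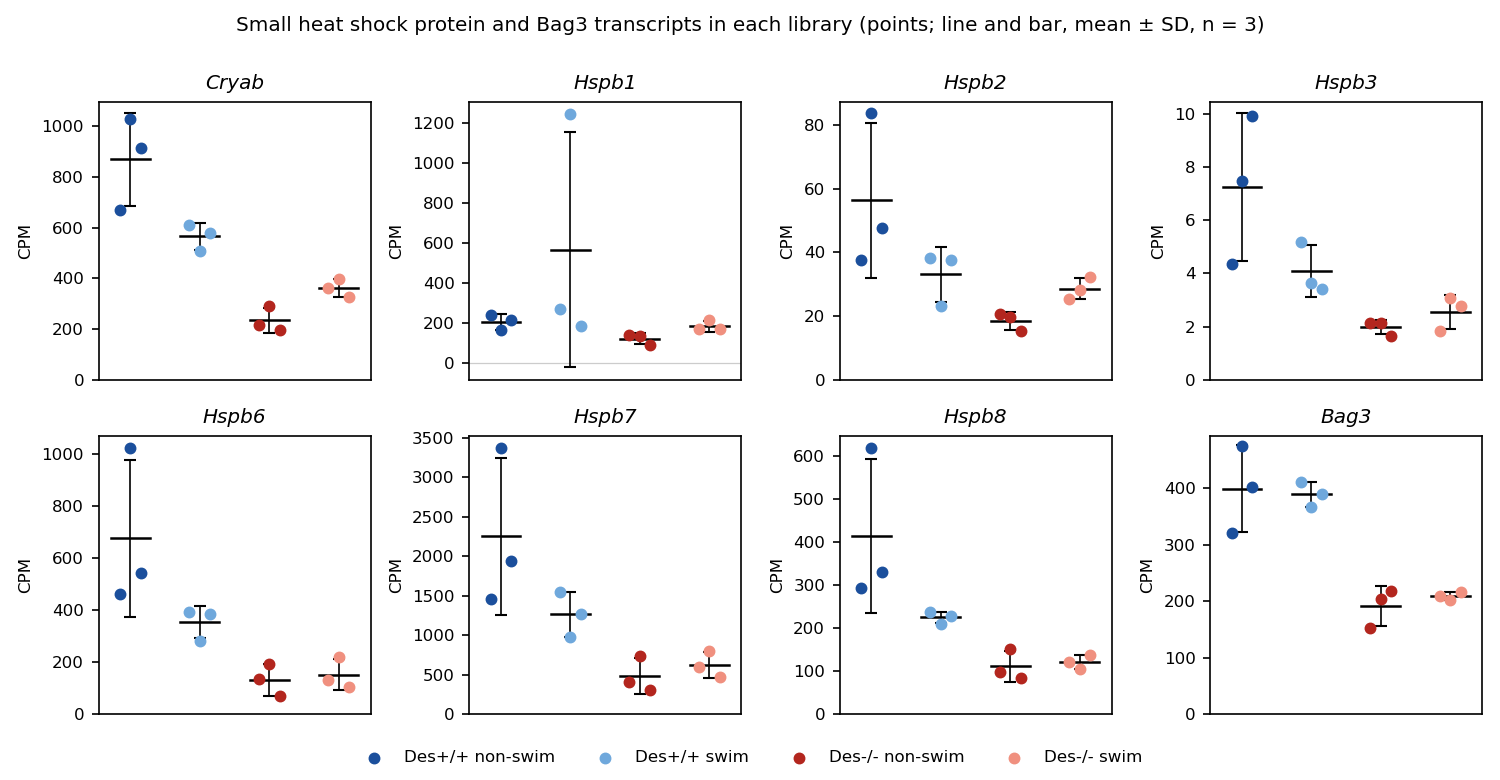
Levels of the 8 transcripts in CPM (vertical axes from 0, 1 panel per gene) in each of the 12 libraries, coloured by group, with the mean and SD of 3 libraries. The Des-/- non-swim libraries sit below the Des+/+ non-swim libraries in every panel, and a single Des+/+ swim library carries Hspb1 to 1243 CPM.

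After swimming Bag3 alone was called. The fitted log2 change was nearer 0 than without swimming for 7 members, all but Hspb1, though none of these differences passed the interaction test in edgeR. The 6 members whose ranges did not overlap were Cryab, Hspb3, Hspb6, Hspb7, Hspb8 and Bag3, all lower in Des-/-, against 18.6% of all genes tested. Of all genes, 5.57% were called lower by edgeR.

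Bag3 stood at 411, 366 and 390 CPM in Des+/+ swim and at 209, 201 and 216 CPM in Des-/- swim libraries. The SDs were 22.3 and 7.49 CPM around means of 389 and 209 CPM (n = 3), and the log2 change was -0.90 (SE 0.18, edgeR adjusted p 0.0156). This call was lost when Des+/+ swim replicate 3 was left out, with a log2 change of -0.90 and an edgeR adjusted p of 0.0603.

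Cryab was measured at 612, 507 and 578 CPM in Des+/+ swim and at 362, 398 and 327 CPM in Des-/- swim libraries, a log2 change of -0.64 (SE 0.20, edgeR adjusted p 0.0601). Hspb8 gave 237, 210 and 229 CPM against 121, 105 and 139 CPM, with a log2 change of -0.89 (SE 0.29, edgeR adjusted p 0.0673). Hspb6 gave 390, 282 and 386 CPM against 130, 220 and 103.5 CPM, with a log2 change of -1.22 (SE 0.41, edgeR adjusted p 0.0742). For these 3 genes the groups were separate but the adjusted p missed the threshold.

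Hspb7 stood at 1551, 979 and 1264 CPM in Des+/+ swim and at 600.5, 800 and 468 CPM in Des-/- swim libraries (log2 change -1.02, SE 0.38, edgeR adjusted p 0.101). Hspb3 was measured at 5.196, 3.64 and 3.42 CPM against 1.85, 3.06 and 2.77 CPM (log2 change -0.68, SE 0.37, edgeR adjusted p 0.234). Hspb2 overlapped between genotypes, at 38.4, 23.2 and 37.7 CPM against 25.5, 28.2 and 32.2 CPM, and its log2 change of -0.21 had a 95% interval from -0.84 to 0.42.

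The number called depended on the tool. DESeq2 called 6 members lower after swimming (Cryab, Hspb1, Hspb6, Hspb7, Hspb8 and Bag3), and 9.23% of all genes. Its adjusted p was 0.0164 for Cryab and 0.0421 for Hspb7. With the genotype difference averaged over both conditions, edgeR called all 8 members lower, against 20.6% of all genes, with log2 changes from -0.91 for Hspb2 to -1.79 for Hspb6. Hspb1 was the weakest of these calls (log2 change -1.18, SE 0.39, edgeR adjusted p 0.0318) and was lost in 5 of the 12 fits that left out a library. Without replicate 2 of the Des+/+ swim group its averaged log2 change was -0.53 (edgeR adjusted p 0.0301).

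**Figure D2:**
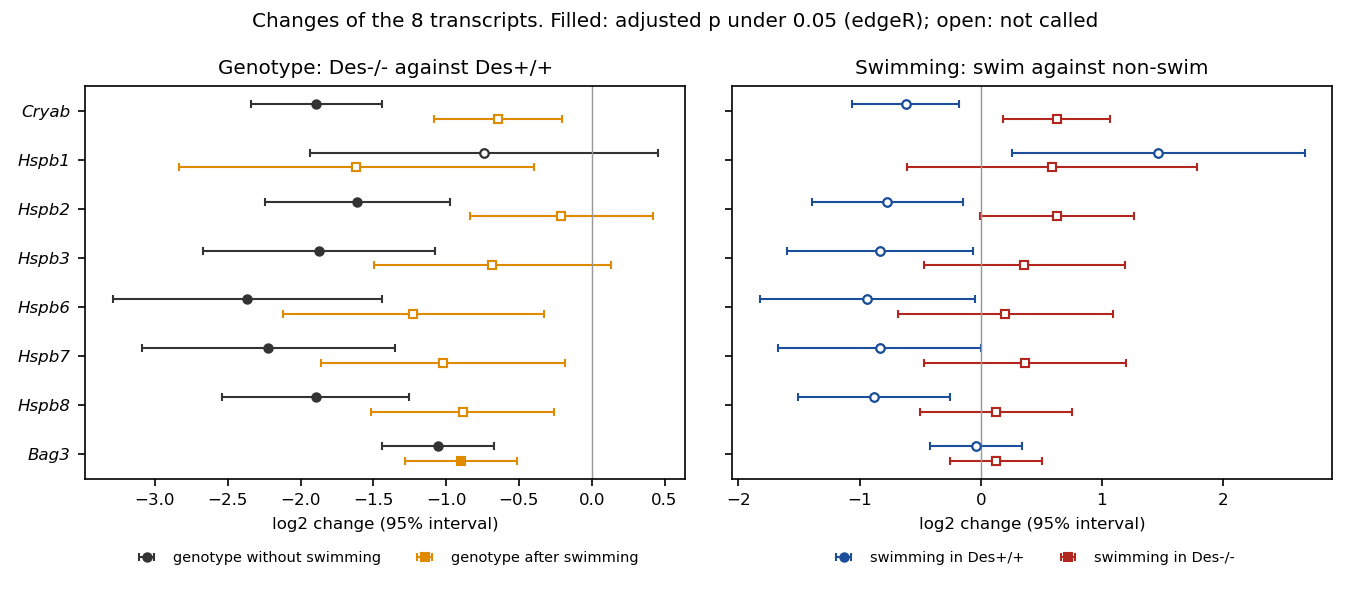
Log2 changes of the 8 transcripts with 95% intervals from edgeR, for genotype on the left and for swimming on the right; filled symbols had an adjusted p under 0.05. In the genotype panel 7 members are filled without swimming and Bag3 alone is filled after it, and in the swimming panel none is filled.

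The effect of swimming was tested separately for each genotype. In Des+/+ libraries edgeR called 0 of the 8 members, and 0.0912% of all genes tested. At an unadjusted p under 0.05, 6 members passed (all but Hspb7 and Bag3), against 20.5% of all genes. Of these, 5 were lower in swim libraries, against 12% of all genes, and Hspb1 was higher, against 8.46%. DESeq2 called Cryab lower (log2 change -0.60, adjusted p 0.0455) and 2.36% of all genes lower. The ranges did not overlap for Cryab, Hspb6 and Hspb8, each lower in swim libraries, which held for 18.7% of all genes.

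Mean Cryab was 870 ± 184 CPM without and 566 ± 53.4 CPM after swimming (SD, n = 3) in Des+/+ libraries, a log2 change of -0.62 (SE 0.20, edgeR adjusted p 0.133). Hspb8 was measured at 415 ± 179 and 225 ± 13.6 CPM (SD, n = 3), a log2 change of -0.88 (SE 0.29, edgeR adjusted p 0.134). Bag3 stayed within its spread, at 399 ± 77.5 and 389 ± 22.3 CPM (SD, n = 3), and its log2 change of -0.04 had a 95% interval from -0.42 to 0.34. The length-scaled ratio of Bag3 to Cryab was 0.254 to 0.276 in the non-swim and 0.387 to 0.417 in the swim libraries of Des+/+ mice. The ratio of Hspb8 to Bag3 was 1.33 ± 0.339 in the non-swim and 0.760 ± 0.00871 in the swim libraries (SD, n = 3), with no overlap between them.

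Hspb1 was the member with the widest spread after swimming, at 272, 1243 and 187 CPM in the Des+/+ swim libraries. Replicate 2 lay 4.58 times above the higher of the other libraries, and without it the log2 change on swimming went from 1.46 (edgeR adjusted p 0.178) to 0.16 (edgeR adjusted p 0.807). Among the 8119 genes with at least 20 CPM, Hspb1 ranked 3 in how far this library exceeded both others. Ranks 1 and 2 were P4ha1 at 7.33 and Hlx at 5.48 times, named here after their values were seen. In the same library Hspb2 was 23.2 CPM, the lowest of its group, and Hspb6, Hspb7, Hspb8, Cryab and Bag3 were also at their group's lowest value. The summed level of 12 cardiomyocyte markers was lowest there too, at 38453 CPM against 54597 and 62516.

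Other targets of heat shock factor 1 were high in that library as well. Of 16 such genes, 13 were highest there and 4 were at least 2 times the higher of the other libraries. The share of all genes highest in that library was not computed, so these counts have no background. Hsph1, an HSP70 nucleotide exchange factor, was 475 CPM against 165 and 62.2. Stip1, the adaptor between HSP70 and HSP90, was 457 CPM against 153 and 102. Hsp90ab1, the constitutive cytosolic HSP90, was 5241 CPM against 2360 and 1957. The stress-inducible HSP70 genes did not share this pattern. Hspa1a was 69.6 CPM against 237 and 55.4, and Hspa1b was 105 CPM against 297 and 89.9. The part of swimming, of isolation or of the pooled mice in this pattern was not tested.

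**Figure D3:**
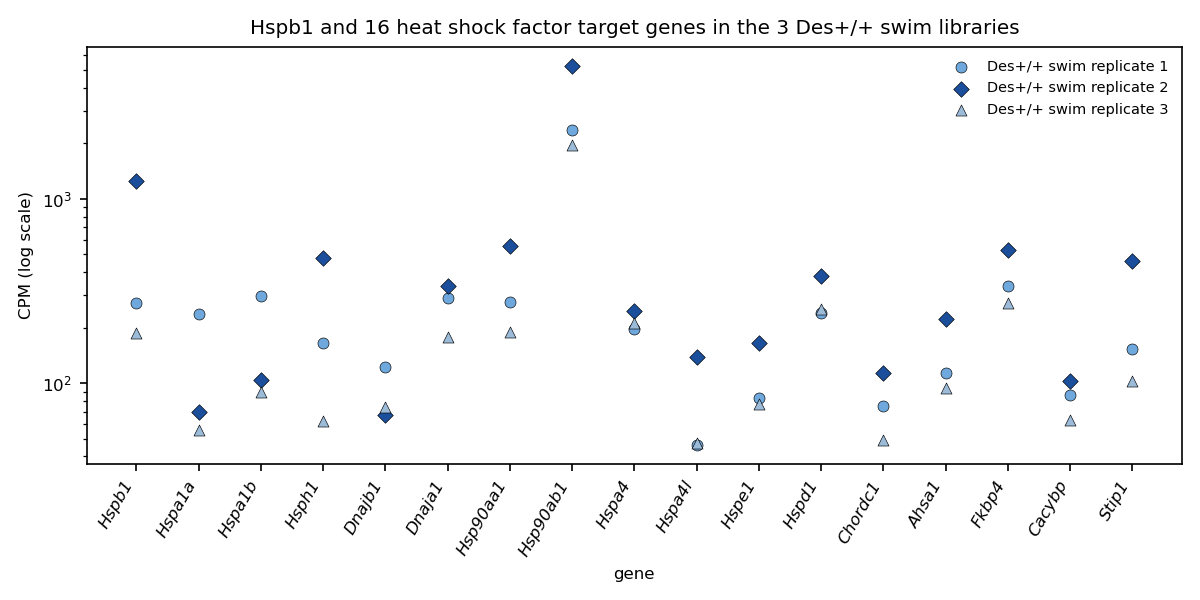
Levels in CPM on a log scale of Hspb1 and 16 heat shock factor targets in the 3 Des+/+ swim libraries, 1 symbol per library. Replicate 2 (diamonds) is highest for Hspb1 and for 13 of the 16 targets, and lies below replicate 1 for Hspa1a, Hspa1b and Dnajb1.

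In Des-/- libraries edgeR called 0 of the 8 members on swimming, and 0.0228% of all genes. At an unadjusted p under 0.05, Cryab alone passed, against 16.7% of all genes. DESeq2 called 0 members and 2.58% of all genes in either direction. The ranges did not overlap for Cryab, Hspb1 and Hspb2, each higher in swim libraries, which held for 10.4% of all genes. Mean Cryab was 235 ± 49.0 CPM without and 362 ± 35.6 CPM after swimming (SD, n = 3), a log2 change of 0.63 (SE 0.20, edgeR adjusted p 0.203). Hspb1 was measured at 123 ± 26.7 and 185 ± 26.8 CPM (SD, n = 3) and Hspb2 at 18.5 ± 2.87 and 28.6 ± 3.38 CPM (SD, n = 3), with edgeR adjusted p of 0.603 and 0.300. Bag3 stood at 191 ± 34.8 and 209 ± 7.49 CPM (SD, n = 3), a log2 change of 0.13 with a 95% interval from -0.26 to 0.51.

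The difference between the 2 swimming responses was tested as an interaction, the change in Des-/- minus that in Des+/+. By edgeR 0 members were called, and 0% of all genes. At an unadjusted p under 0.05, 5 members passed (Cryab, Hspb2, Hspb3, Hspb7 and Hspb8), all positive, against 16.3% of all genes in either direction. Cryab had an interaction of 1.25 on the log2 scale (SE 0.28) and Hspb2 of 1.40 (SE 0.41), both with an edgeR adjusted p of 0.199. DESeq2 called both (adjusted p 0.00523 for Cryab and 0.0497 for Hspb2) and 1.45% of all genes as positive. For Bag3 the interaction was 0.16, with a 95% interval from -0.38 to 0.70. All 12 cardiomyocyte markers also had a positive interaction, with a median of 1.39, and 0 of them were called by edgeR. Relative to the reads of these markers, the interaction was negative for all 8 members, at -0.45 for Cryab (SE 0.68, edgeR adjusted p 0.551) and -0.26 for Hspb2 (edgeR adjusted p 0.744). On that scale 0 members and 0% of all genes were called, and the median of all genes was -1.74. The swimming response of Cryab turned to 0.25 in Des+/+ (SE 0.48, edgeR adjusted p 0.711) and to -0.20 in Des-/- libraries (SE 0.48, edgeR adjusted p 0.725). Without Des-/- non-swim replicate 3, the interaction of Cryab on that scale was 0.14 (SE 0.51, edgeR adjusted p 0.842).

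The level of cardiomyocyte marker transcripts in the libraries moved with these comparisons. The 12 cardiomyocyte markers summed to 77829 to 116683 CPM in Des+/+ non-swim, 38453 to 62516 in Des+/+ swim, 7619 to 34029 in Des-/- non-swim and 19296 to 31903 CPM in Des-/- swim libraries. Without swimming, all 12 were called lower in Des-/- libraries (median log2 change -2.16), led by Pln, which encodes phospholamban, at -2.76 (SE 0.48, edgeR adjusted p 0.00191). Fibroblast markers summed to 3337 to 3920 CPM in Des+/+ non-swim and 8570 to 40595 CPM in Des-/- non-swim libraries, with 10 of 10 called higher. Macrophage markers summed to 225 to 347 and 428 to 5014 CPM, with 9 of 10 called higher, and immediate early genes that respond to cell isolation to 1810 to 2920 and 5166 to 10859 CPM, with 11 of 13 called higher. Erythrocyte markers, the globins and Alas2, summed to 179 to 546 CPM in Des+/+ non-swim and 1470 to 4579 CPM in Des-/- non-swim libraries, with 5 of 5 called higher. They stood at 1390 to 2175 CPM in Des+/+ swim and 491 to 2919 CPM in Des-/- swim libraries, and 0 of 5 were called after swimming, for swimming or for the interaction. Of all genes tested, 14% were called higher without swimming. No marker was at 0 in all libraries of a group. In bulk libraries, fewer cardiomyocytes and less RNA of a gene per cardiomyocyte cannot be told apart.

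The members were therefore also expressed relative to the reads of the 12 cardiomyocyte markers. On that scale all 8 members had a positive log2 change between genotypes without swimming, and 2 were called higher: Hspb1 at 1.78 (SE 0.70, edgeR adjusted p 0.0205) and Bag3 at 1.74 (SE 0.56, edgeR adjusted p 0.00597). The same scale moved the median of all genes to 2.73 and called 92.8% of all genes higher. Both calls were lost without Des-/- non-swim replicate 3, which left Hspb1 at 1.35 (SE 0.64, edgeR adjusted p 0.0505) and Bag3 at 0.76 (SE 0.40, edgeR adjusted p 0.0750), while 87.7% of all genes were called higher. With all libraries the log2 change was 0.07 for Hspb6 (SE 0.45, edgeR adjusted p 0.885), 0.27 for Hspb7 (SE 0.44, edgeR adjusted p 0.560) and 0.73 for Cryab (SE 0.48, edgeR adjusted p 0.157). After swimming 0 members and 0.251% of all genes were called higher, with log2 changes from -0.94 for Hspb1 to 0.81 for Hspb2. Averaged over swimming, Hspb2 and Bag3 were called higher on this scale, against 91.7% of all genes. Hspb2 alone was called without Des-/- non-swim replicate 3, and 0 members without Des-/- swim replicate 3. In these fits 89.3% and 88.1% of all genes were called higher. Without replicate 2 of the Des+/+ swim group, Hspb1 was called as well (log2 change 1.31, edgeR adjusted p 0.00542), against 90.9% of all genes.

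In reads, Hspb6 was counted at 7.07 ± 1.49 per 1000 marker reads in Des+/+ non-swim and at 7.42 ± 1.68 in Des-/- non-swim libraries (SD, n = 3). Hspb7 was counted at 23.6 ± 5.10 and 28.4 ± 10.4 (SD, n = 3). For Bag3 the libraries were 4.11, 4.07 and 4.82 per 1000 marker reads in Des+/+ non-swim and 8.70, 5.98 and 28.7 in Des-/- non-swim, with the highest value in replicate 3, the library with the fewest cardiomyocyte marker reads. In the swim groups Bag3 was counted at 7.75 ± 1.57 in Des+/+ and 8.03 ± 2.75 in Des-/- libraries (SD, n = 3), a difference below either SD. Without swimming, these ranges overlapped between genotypes for all members but Bag3 and Hspb1. Hspb1 was counted at 1.40 to 3.08 and 4.06 to 12.1 per 1000 marker reads. The share of all genes without overlap on this scale was not computed. By edgeR, 92.8% of all genes were called higher on it. The median log2 change of all genes, 2.73, lay above the 1.74 of Bag3 and the 1.78 of Hspb1.

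**Figure D4:**
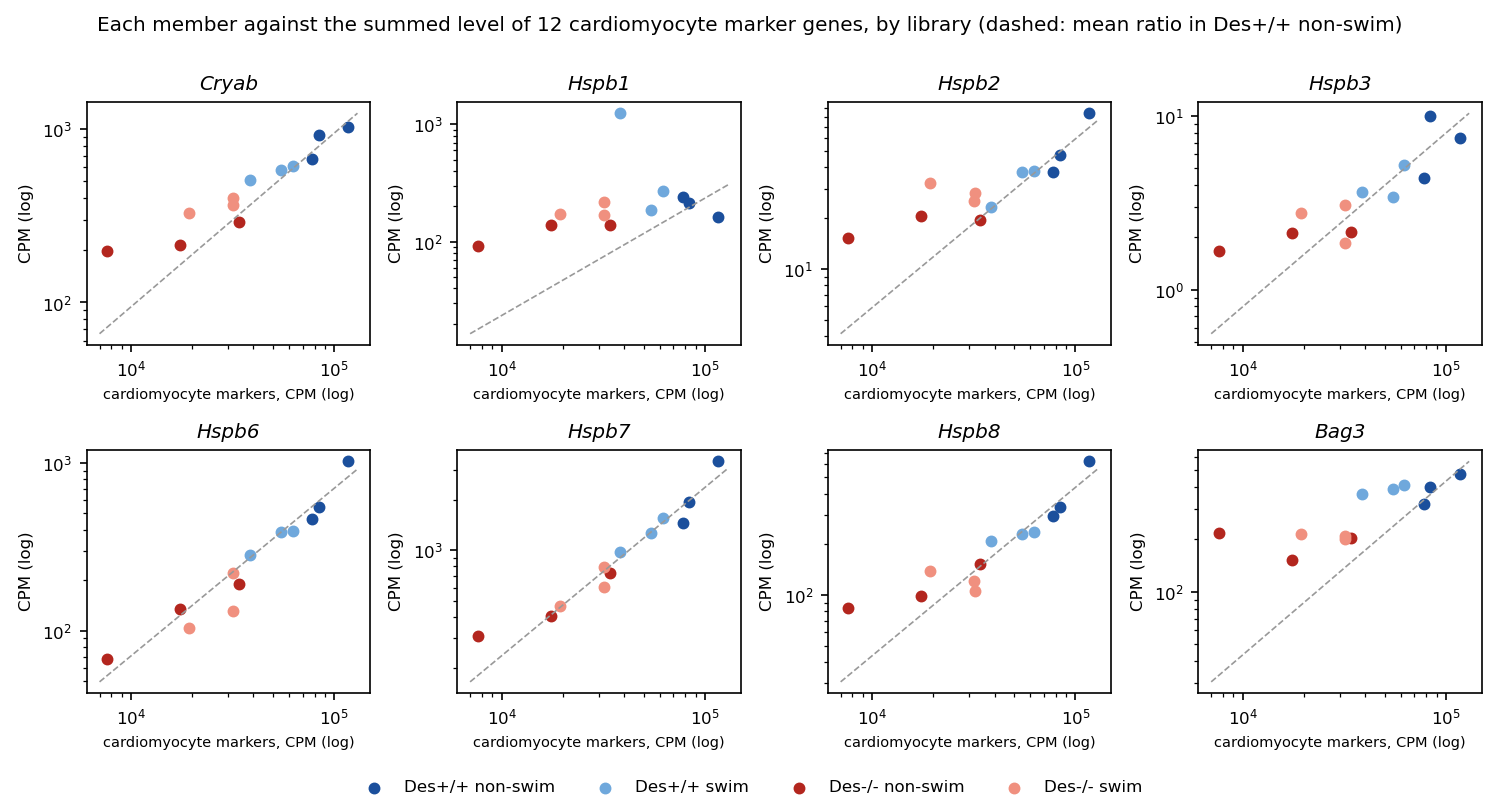
Level of each member (CPM, log scale) against the summed level of 12 cardiomyocyte markers (CPM, log scale) in the 12 libraries, coloured by group; the dashed line is the mean ratio in Des+/+ non-swim libraries. Hspb6 and Hspb7 lie nearest the line, while Bag3 and Hspb1 lie above it at low marker levels. In the library with the lowest marker level, Cryab, Hspb2, Hspb3 and Hspb8 lie above it too. Relative to these markers, edgeR called 92.8% of all genes higher in Des-/- libraries without swimming.

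The make-up of the family was compared per exon length. Hspb7 took 36.3 ± 4.52% of the summed level of the 7 small heat shock proteins in Des+/+ non-swim and 28.6 ± 4.61% in Des-/- non-swim libraries (SD, n = 3), and Cryab 27.5 ± 3.67% and 27.4 ± 3.41%. The share of Hspb1 was 5.39% to 14.4% in Des+/+ non-swim and 17.1% to 23.9% in Des-/- non-swim libraries, without overlap. The length-scaled ratio of Hspb1 to Cryab was 0.228 to 0.514 and 0.668 to 0.925 in the same libraries. The ratio of Bag3 to Cryab lay above its Des+/+ non-swim range in every library of the other 3 groups, to 0.405 to 0.637 in Des-/- non-swim and 0.292 to 0.382 in Des-/- swim libraries. The ratio of Hspb2 to Cryab was 0.112 ± 0.0283 in Des+/+ non-swim and 0.142 ± 0.0256 in Des-/- non-swim libraries (SD, n = 3), and these ranges overlapped.

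**Figure D5:**
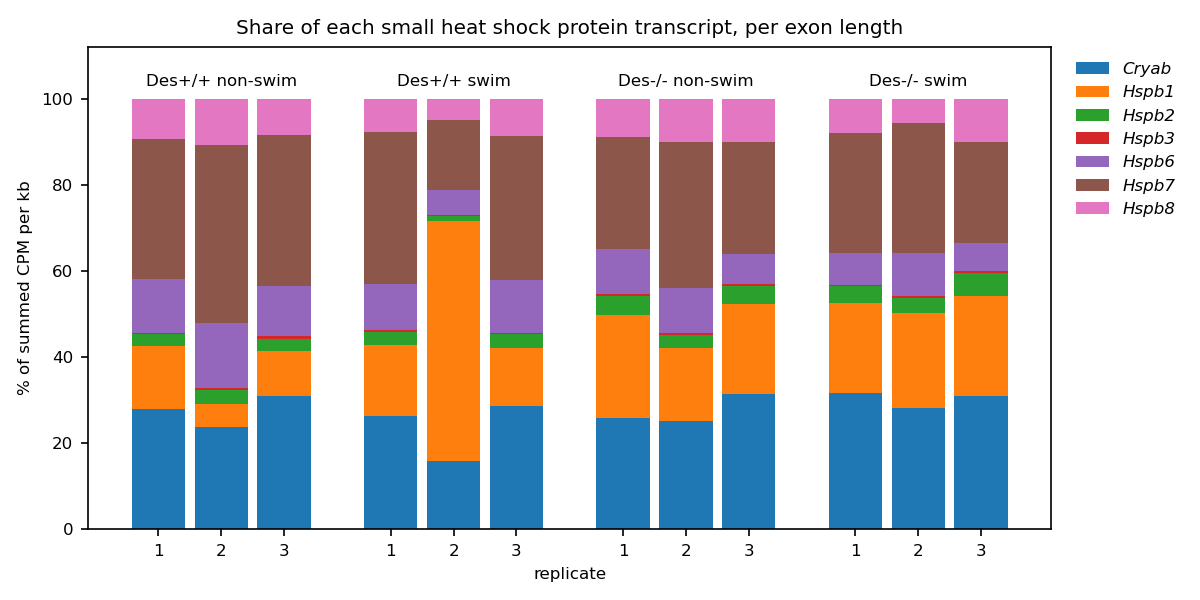
Share of each of the 7 small heat shock proteins in their summed level per exon length (percent, vertical axis) in the 12 libraries (replicates 1 to 3 of each group). Hspb7 and Cryab are the largest shares in most bars, and Hspb1 reaches 55.7% in replicate 2 of the Des+/+ swim group.

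The partners and possible substrates of the members were described from lists of genes. Over all genes tested, edgeR called 18% lower and 14% higher without swimming, with a median log2 change of 0.04, and 5.57% lower and 5.01% higher after it, with a median of 0.02. Of 14 genes that act with BAG3 in selective autophagy, 6 were called lower and 0 higher in Des-/- libraries without swimming (median log2 change -0.52). The largest was Synpo2, the BAG3-binding Z-disc protein, at -1.40 (SE 0.29, edgeR adjusted p 0.00484). After swimming 2 were called lower (median -0.26), led by Ywhag, a 14-3-3 protein, at -1.07 (SE 0.15, edgeR adjusted p 0.00887). Of 5 other BAG family genes, 2 were called lower without swimming, Bag2 at -1.54 (SE 0.34, edgeR adjusted p 0.00594) and Bag1 at -0.65 (SE 0.13, edgeR adjusted p 0.00369), and 0 after it.

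Of 14 genes of filaments and the Z-disc, listed as possible substrates of the chaperones, 9 were called lower and 1 higher without swimming (median log2 change -1.48). Actn2 is also among the 12 cardiomyocyte markers, whose median was -2.16, and the part of the cardiomyocyte marker level in these changes was not tested. Des itself was at -5.31 (SE 0.37, edgeR adjusted p 1.57e-04), and Vim, the intermediate filament vimentin of non-muscle cells, was the gene called higher, at 1.43 (SE 0.24, edgeR adjusted p 0.00179). After swimming Des was the only one of the 14 called. Vim moved with the fibroblast and macrophage markers given above, and their part in its change was not tested.

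Among the 16 heat shock factor targets, 6 were called lower and 1 higher in Des-/- libraries without swimming (median log2 change -0.72). Hspd1, the mitochondrial HSP60, was the largest at -1.50 (SE 0.23, edgeR adjusted p 0.00118), and the gene called higher was Hspa1a at 1.91 (SE 0.67, edgeR adjusted p 0.0469). Without replicate 2 of the Des+/+ swim group, 9 were called lower and 0 higher (median -0.72), with Hspa1a at an edgeR adjusted p of 0.0513. Without replicate 3 of Des-/- non-swim, 5 were called lower and 0 higher (median -0.67), with Hspa1a at an edgeR adjusted p of 0.0601. After swimming 8 were called lower and 0 higher (median -1.24), led by Hsph1 at -2.66 (SE 0.61, edgeR adjusted p 0.0238). Without replicate 2 of the Des+/+ swim group, 3 were called lower after swimming (median -0.75), and leaving out Des-/- non-swim replicate 3 gave 10. Of 4 heat shock factor genes, 3 were tested and 0 were called in either comparison. Of 4 other small heat shock proteins, Hspb11 alone passed the filter, with a log2 change of 0.14 (SE 0.34, edgeR adjusted p 0.790) without swimming.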

How the data were processed

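Raw counts of reads per gene, deposited by the authors for 12 libraries, were used. The authors aligned 100 bp single-end reads to GRCm38 (mm10) with HISAT2 2.2.1 and SAMtools 1.13 and counted them with HTSeq-count on the reverse strand. Groups came from the sample labels, and each replicate was a pool, so p-values measure the spread between pools. The members and the gene lists were chosen with earlier results of these data known.

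The software was edgeR 4.0.16 on limma 3.58.1, with DESeq2 1.42.0 as an alternative, under R 4.3.3. After filterByExpr and TMM scaling, quasi-likelihood tests of 4 group means (all 12 libraries, 8 residual degrees of freedom) were adjusted by Benjamini and Hochberg over 13158 genes, and genes with an adjusted p under 0.05 were called. The SE is the log2 change divided by the square root of F. Levels are TMM-scaled CPM; levels of different genes were compared per kilobase of union exon length (GENCODE M21). A floor of 3 counts was 0.249 to 0.694 CPM per library and covers counting error only. The procedure was tested on simulated counts. The fits without single libraries for the heat shock targets and on the cardiomyocyte marker scale were added after seeing the data.

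All members were named; of each list, the called gene with the largest log2 change in each direction; and for each member, the 2 non-members of at least 20 CPM with the smallest root mean square difference of centred log2 CPM. Deviations of same-numbered replicates had correlations of 0.365, 0.316 and 0.602 between the 2 Des-/- groups, and of 0.134 at most in the other comparisons. Replicates 1 and 2 of the Des-/- groups were nearly as alike across numbers (0.299 and 0.292). Only replicate 3 stood apart, so a pairing of the libraries by number was not shown.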

Additional observations from a re-analysis of the deposited data

Results flagged for a closer look

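The swimming response of Cryab went opposite ways in the 2 genotypes: all 3 Des+/+ swim libraries lay below, and all 3 Des-/- swim libraries above, the non-swim libraries of their genotype. The difference between the responses was 1.25 on the log2 scale (SE 0.28), with an edgeR adjusted p of 0.199 and a DESeq2 adjusted p of 0.00523, so the call depends on the tool. The summed cardiomyocyte markers were 77829 to 116683 CPM without and 38453 to 62516 CPM after swimming in Des+/+ libraries, without overlap, and 7619 to 34029 and 19296 to 31903 CPM in Des-/- libraries, with overlap. Relative to the reads of these markers, the difference was -0.45 (SE 0.68, edgeR adjusted p 0.551), between responses of 0.25 in Des+/+ and -0.20 in Des-/- libraries. Groups of 3 libraries were too small for a test of single outlying values.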

How the results depend on the processing

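Over 20 settings other than the scaling to cardiomyocyte markers, all 472 genotype changes of the members were negative. Of 944 member values in all, 901 kept their side of the threshold, 36 passed it newly and 7 lost it. Of the values called under either setting, 0 changed direction. Some uncalled values changed sign when 1 library was left out. The interaction of Hspb1 went from -0.87 to as high as 0.43. The change of Hspb6 on swimming in Des-/- libraries went from 0.20 to as low as -0.17. Relative to cardiomyocyte marker counts, 2 members were called without swimming, 0 after it and 2 averaged, where 92.8%, 0.251% and 91.7% of all genes were higher. The log2 changes that turned without swimming were 0.73 for Cryab, 1.78 for Hspb1, 1.07 for Hspb2, 0.71 for Hspb3, 0.0694 for Hspb6, 0.27 for Hspb7, 0.69 for Hspb8 and 1.74 for Bag3; after swimming 0.28 for Cryab, 0.81 for Hspb2, 0.29 for Hspb3, 0.0876 for Hspb8 and 0.0513 for Bag3; and averaged 0.50 for Cryab, 0.42 for Hspb1, 0.94 for Hspb2, 0.50 for Hspb3, 0.0804 for Hspb7, 0.39 for Hspb8 and 0.89 for Bag3. Of these, Hspb1 without swimming and all after swimming but Bag3 were uncalled before. The sign also turned for 6 members on swimming in Des+/+, 8 on swimming in Des-/- and 7 in the interaction, none of them called on either scale. This scaling divides by genes that were themselves lower in Des-/- libraries. Other scalings moved the median of all genes without swimming from 0.04 to 0.29 at most.

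After swimming, edgeR called 1 member and DESeq2 6 (9.23% of all genes lower), the 6 libraries alone 4 (4.85%), and fits without 1 library 0 to 4 (0.305% to 8.59%): 0 without replicate 3 of Des+/+ swim, 2 without replicate 2 of Des+/+ non-swim, and 3 and 4 without replicates 2 and 3 of Des-/- non-swim. The thresholds of the study (unadjusted p of at most 0.05, log2 change of at least 0.6, mean count of at least 20) were set there on DESeq2 results. Applied here to edgeR values they passed 6 members after swimming (8.21% of all genes lower), 6 for swimming in Des+/+ (10.3% of all genes), 1 for swimming in Des-/- (8.61%) and 5 for the interaction (13%). On DESeq2 values, added after seeing the data, they passed 6 (8.41%), 7 (11.1%), 2 (9.42%) and 6 (14.2%). DESeq2 with its adjusted p called 1 for swimming in Des+/+ (2.36% lower) and 2 for the interaction (1.45% higher). Fits without 1 library called 7 to 8 members without swimming (13.1% to 18.4% of all genes lower), 7 to 8 averaged (17.8% to 19.9%) and 0 for swimming in either genotype and for the interaction. With the replicate block, 2 members and 5.27% of all genes were called lower after swimming (Hspb6 at -1.36, edgeR adjusted p 0.0367), and the block changed no other call. For swimming in Des-/- libraries it called 0 members and 0.0152% of all genes. The causes of these differences were not tested. Hspb3, at 13 to 110 reads per library, has the least depth.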

Other observations

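The genes most like each member over the 12 libraries were found from centred log2 levels, among 8112 other genes with at least 20 CPM. Cryab was nearest to Chchd3, a subunit of the mitochondrial contact site complex, and Acot13, a mitochondrial thioesterase, with root mean square differences of 0.14 for each against a median of 0.76 over all candidates. Hspb7 was nearest to Got2 (0.15) and Hadha (0.17), enzymes of mitochondrial metabolism, Hspb6 to Asb10 (0.20) and Asb2 (0.21), and Hspb2 to Cav3 (0.18), the caveolin of muscle, and Eci2 (0.19). Hspb8 was nearest to Psme4 (0.18), an activator of the proteasome, and Pgm1 (0.19), and Hspb3 to Ss18l2 (0.29) and Chchd3 (0.30). Bag3 was nearest to Mapkapk2 (0.14), the kinase that phosphorylates HSPB1, and Card19 (0.15). For Hspb1 the nearest genes, Bmp6 (0.42) and Hsp90ab1 (0.45), lay farther away, and its distance to the other members was 0.80 or more. These libraries share the differences in cell marker levels given above, so the likeness is a description.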
